A study of Mus musculus with 12 samples.

Results

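RNA from leukemic long-term hematopoietic stem cells (LTHSC) was compared directly between mice carrying a Prx1-Cre transgene and mice carrying a Tek-Cre transgene. The comparison used 8 of the 12 libraries of the series, 4 from Prx1_Cre and 4 from Tek_Cre mice, chosen by the group names in the labels, and the genes that passed a filter on low counts. The remaining 4 libraries came from mice without Cre (No_Cre). Both groups compared were C57BL/6 animals with chronic myeloid leukemia (CML), the cells were sorted by flow cytometry from bone marrow, and the series design gives 4 biological replicates per group. The labels describe the animals both as recipients and as primary mice. They state neither the leukemia model, the age of the animals, the sort markers nor the genotype at Cxcl12, so whether any group carried a floxed Cxcl12 allele is not known from them.

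Blood-forming stem cells are held in the marrow by the chemokine CXCL12, which stromal and endothelial cells of the niche secrete and which binds the receptor CXCR4 on the stem cell. The Prx1 (Prrx1) promoter drives Cre in limb mesenchyme and the stromal cells derived from it, including those of the marrow. The Tek (Tie2) promoter drives Cre in endothelial cells and also in blood-forming cells, so a Tek-Cre allele can act in the sorted cells themselves as well as in the vessels around them. According to its title, the series concerns Cxcl12 from mesenchymal cells and resting leukemia stem cells that survive treatment. The direct comparison asks how leukemic LTHSC differed between a mesenchymal and an endothelial Cre line.

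Total counts ran from 15715603 to 28860324 per library in Tek_Cre and from 22385590 to 28253956 in Prx1_Cre, and no difference was detected (two-sided exact permutation test, p = 0.714). Levels are given in CPM, counts scaled to a common library size, with trimmed-mean (TMM) factors. The label was checked with 7 long-term stem cell markers (Procr, Slamf1, Mecom, Hlf, Ly6a, Fgd5 and Hoxb5), which had counts in all 8 libraries. Transcripts of other lineages were present too: the 27 late neutrophil granule genes listed summed to 45428 to 46315 CPM in the Tek_Cre libraries and 48339 to 49183 CPM in the Prx1_Cre libraries. Immunoglobulin genes took 25.2 to 26.02% of counts in Tek_Cre and 0.296 to 0.3096% in Prx1_Cre (exact p = 0.0286, the smallest that 4 against 4 libraries allow, adjusted p = 0.0381 over 8 library measures). Prx1_Cre replicate 4 stood apart from its group. Its counts differed from those of the 3 other Prx1_Cre libraries with a chi-square per degree of freedom of 11.0 to 13.9, against 1.77 to 7.63 for the 9 other pairs within groups, so the results were also computed without it. P-values measure the spread between these libraries, which may be smaller than the spread between independent cohorts of animals. The libraries of a group differed little, with a coefficient of variation beyond counting noise of 5.29% in Tek_Cre and 6.82% in Prx1_Cre. Whether the libraries of a group came from separate animals or from a shared pool was not tested.

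The expression profiles of the groups differed widely. Of 14756 genes tested, 5571 (37.8%) were higher and 5873 (39.8%) lower in Prx1_Cre than in Tek_Cre at an adjusted p under 0.05 (edgeR quasi-likelihood test), together 77.6%. A second test asked for a change of more than 2-fold and was passed by 1048 genes (7.1%) upward and 1824 (12.4%) downward, together 19.5%. The libraries of the groups did not overlap for 10233 genes (69.3%). Since most genes differed, a call against no change says little about a single gene or list, and both shares serve below as the background against which counts are read. Genes under the first threshold are described as having risen or fallen in Prx1_Cre relative to Tek_Cre, and those under the second as changed past 2-fold. Without Prx1_Cre replicate 4 the counts were 5750 higher and 6038 lower, with 1141 and 1923 past 2-fold. The median log2 fold change over all genes was -0.01, a value that the TMM scaling largely sets. Under upper-quartile factors it was -0.089.

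**Figure D1:**
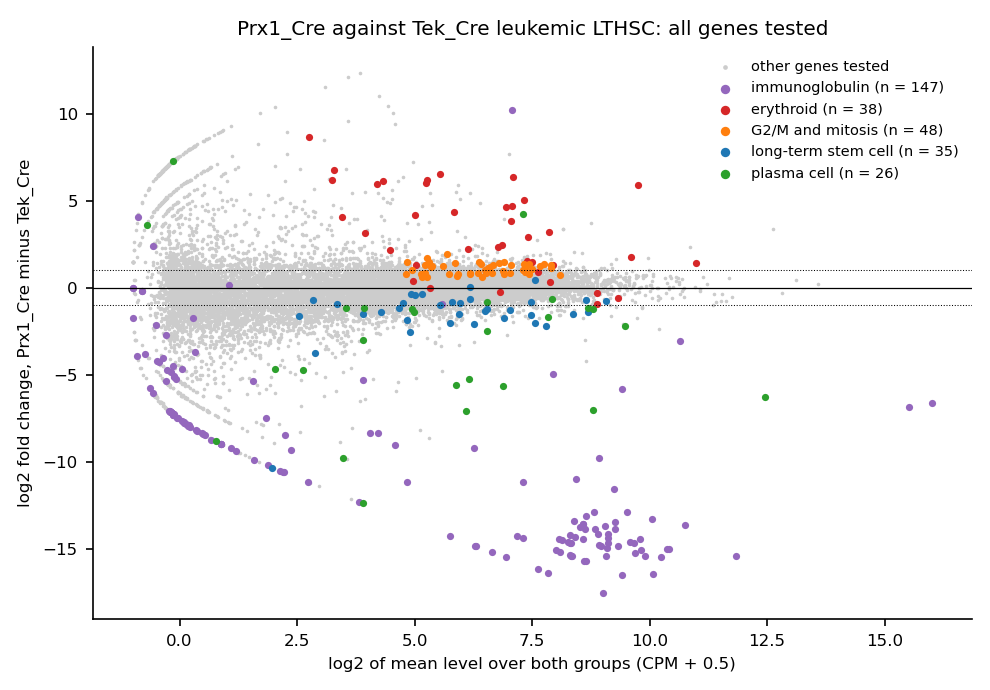
Log2 fold change (Prx1_Cre minus Tek_Cre) of the 14756 genes tested against the log2 of their mean level over both groups (CPM + 0.5). Each point is a gene, colours mark 5 gene groups, dotted lines mark 2-fold, and points on the curved edges are genes with few or no counts in 1 group. Immunoglobulin and plasma cell genes lie mostly below the lines, erythroid genes above them, and the 48 G2/M genes form a narrow band above 0.

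Genes of the niche axis were measured in the stem cells, not in the niche. Cxcl12 (ENSMUSG00000061353.11; chromosome 6, 117168535 to 117181367, GRCm38) had 28 counts over the 4 Tek_Cre and 28 over the 4 Prx1_Cre libraries and did not pass the filter, so these data hold no measurement of the ligand in stromal or endothelial cells. Its receptor Cxcr4 (ENSMUSG00000045382.6; chromosome 1, 128588199 to 128592293) stood at 21.99, 20.1, 21.2 and 21.6 CPM in Tek_Cre and 26.8, 27.1, 26.9 and 26.4 CPM in Prx1_Cre. All 4 Prx1_Cre libraries lay above all 4 Tek_Cre libraries, and Cxcr4 rose by a log2 fold change of 0.33 ± 0.06 (adjusted p = 2.03e-05), short of 2-fold. Ackr3, the scavenging receptor for CXCL12, had 0 counts in Tek_Cre and 9 in Prx1_Cre and was not tested. Of 31 niche ligands, receptors and adhesion genes tested, 11 rose and 18 fell, with 3 past 2-fold each way. The shares that rose and fell were 35.5% and 58.1%, against 37.8% and 39.8% of all genes tested. Past 2-fold they were 9.68% each way, against 7.1% higher and 12.4% lower. Itga4, an integrin subunit that binds VCAM1, rose from 30.1 ± 1.75 to 41.6 ± 3.42 CPM (mean ± SD, n = 4 each, adjusted p = 3.21e-07). Kit, the stem cell factor receptor, fell from 977 ± 17.7 to 595 ± 16.4 CPM (adjusted p = 3.74e-15), and Selplg, the selectin ligand PSGL-1, from 398 ± 23.1 to 271 ± 16.5 CPM (adjusted p = 1.05e-10).

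The angiopoietin receptor Tek, whose promoter drives the Cre of the other group, is also expressed by long-term stem cells. It stood at 60.2, 63.7, 69.6 and 59.5 CPM in Tek_Cre and 35.9, 33.98, 33.1 and 34.2 CPM in Prx1_Cre, and fell by a log2 value of -0.88 ± 0.06 (adjusted p = 2.84e-12) with no overlap between groups. The No_Cre libraries had 69.7 ± 5.15 CPM. S1pr1, the receptor through which sphingosine 1-phosphate draws cells out of the marrow, fell from 28.5 ± 1.56 to 11.5 ± 0.962 CPM, 2.49-fold, and passed the 2-fold test (adjusted p = 0.000206).

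Long-term stem cell genes were lower in Prx1_Cre as a group. Of 36 genes listed, 35 were tested, 33 fell and 1 rose, and 20 fell past 2-fold while 0 rose past it. The share past 2-fold was 57.1%, against 12.4% of all genes tested, and the median log2 fold change was -1.26. Procr (ENSMUSG00000027611.12; chromosome 2, 155751117 to 155755471), which encodes the endothelial protein C receptor used to sort stem cells, stood at 88.4, 91.8, 88.9 and 94.1 CPM in Tek_Cre against 30.1, 31.5, 29.9 and 34.6 CPM in Prx1_Cre. The groups were far apart relative to their spread, and Procr fell 2.88-fold (log2 -1.53 ± 0.05, adjusted p for a change past 2-fold 9.15e-10). Ly6a, which encodes the stem cell antigen Sca-1, stood at 303, 311, 304 and 295 CPM in Tek_Cre and 76.4, 76.3, 79.5 and 68.3 CPM in Prx1_Cre. It fell 4.04-fold (log2 -2.01 ± 0.05, adjusted p past 2-fold 2.87e-16), with the lowest value in Prx1_Cre replicate 4, though similar Ly6 genes make its counts uncertain.

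Transcription factors of stem cell identity and other stem cell markers fell alongside. Mecom, a zinc finger factor that stem cells need, had 129.7, 129, 131 and 128 CPM in Tek_Cre and 52.98, 50.1, 48.6 and 50.7 CPM in Prx1_Cre. It fell 2.56-fold (adjusted p past 2-fold 1.05e-08). Fgd5, a guanine exchange factor used to mark stem cells, fell from 27.6 ± 2.28 to 10.4 ± 1.24 CPM (adjusted p past 2-fold 3.99e-05). Hoxb5 fell from 8.11 ± 0.675 to 2.59 ± 0.153 CPM (adjusted p past 2-fold 7.2e-06). Hlf and Slamf1, a transcription factor and the sort antigen CD150, fell by less, from 70.2 ± 1.91 to 39.5 ± 1.65 CPM and from 61.6 ± 2.9001 to 31.1 ± 1.41 CPM, and did not pass the 2-fold test. The smallest p-values of the list belonged to Trim47 (363 ± 19.7 to 78.6 ± 5.54 CPM), Ly6a and Clec1a (49.97 ± 1.097 to 8.66 ± 0.706 CPM). The exceptions, named here after their values were seen, were Cd82, which rose, and Abcg2, an efflux pump, which stood at 77.6, 74.4, 69.4 and 61.4 CPM in Tek_Cre and 78.2, 75.7, 76.3 and 59.6 CPM in Prx1_Cre and was not called (adjusted p = 0.657, but 0.0441 and higher without Prx1_Cre replicate 4). In bulk RNA, fewer cells of a type and less RNA per cell cannot be told apart.

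**Figure D2:**
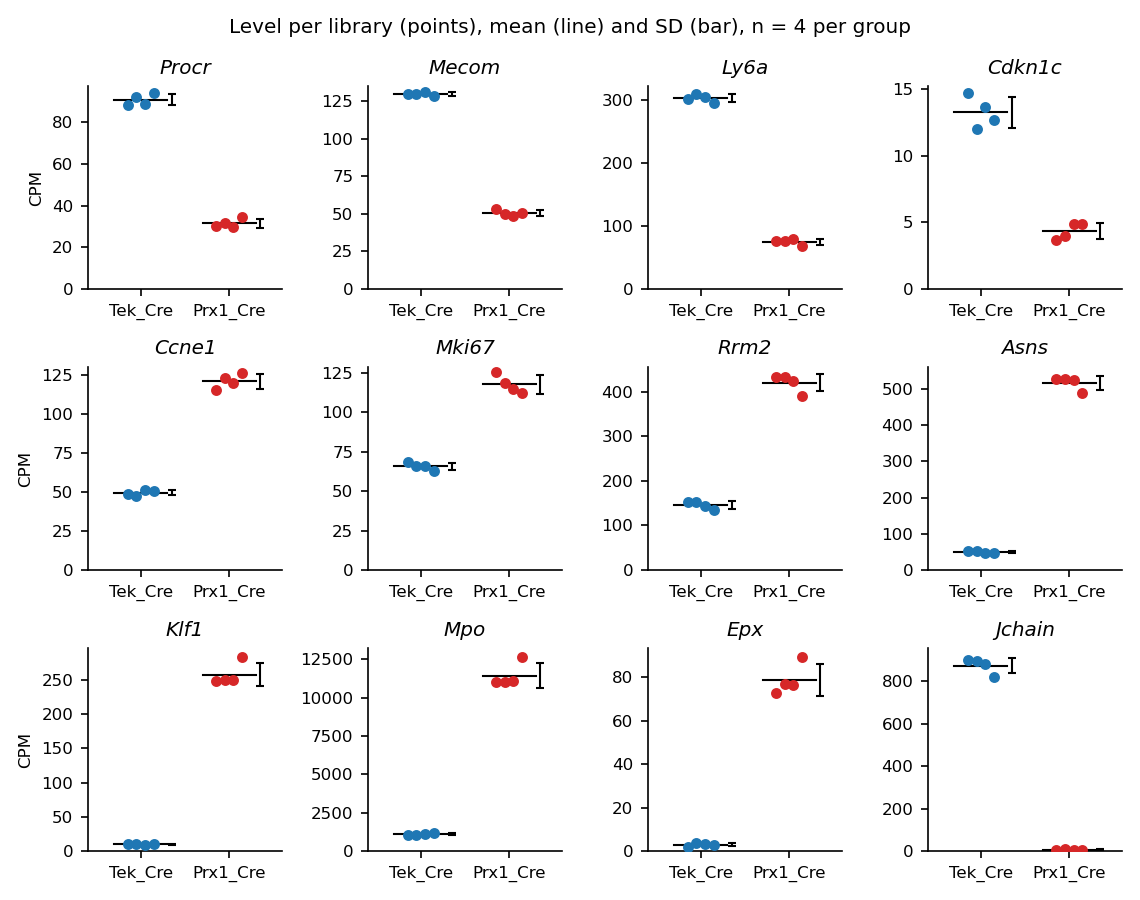
Levels (CPM, axes from 0) of 12 genes in each library of Tek_Cre (blue) and Prx1_Cre (red), with the group mean as a line and ±1 SD as a bar (n = 4 per group). The 4 stem cell and quiescence genes of the top row lie lower in Prx1_Cre and the 7 that follow lie higher, while the plasma cell gene Jchain is near 0 there.

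Progenitor genes moved in both directions. Of 20 multipotent and lymphoid-primed progenitor genes, 5 rose and 14 fell, with 1 and 3 past 2-fold. The shares past 2-fold were 5% and 15%, against 7.1% and 12.4% of all genes. Cd48, which is low on long-term stem cells and gained by progenitors, stood at 22.4, 19.3, 21.4 and 19.9 CPM in Tek_Cre and 55.4, 51.1, 50.2 and 46.99 CPM in Prx1_Cre. It rose 2.46-fold (adjusted p past 2-fold 0.000244) with no overlap. Sox4, a factor of early lymphoid progenitors, fell from 207 ± 8.54 to 79.5 ± 5.897 CPM and Dntt, the terminal transferase of lymphoid-primed cells, from 19.2 ± 0.782 to 3.34 ± 0.567 CPM (adjusted p past 2-fold 9.96e-07 and 1.02e-12). The No_Cre libraries had 3.03 ± 0.242 CPM of Dntt. Cd34 fell from 283 ± 13.996 to 232 ± 10.8 CPM and the cytokine receptor Flt3 from 77.5 ± 2.25 to 70.6 ± 2.06 CPM, both short of 2-fold; for Flt3 the call was lost without the filter on low counts (adjusted p = 0.117).

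Quiescence regulators did not move as a block. Of 32 tested, 10 rose and 17 fell, 2 and 4 of them past 2-fold, which is 6.25% and 12.5% against 7.1% and 12.4% of all genes, so the shares lay near the background. Among the CDK inhibitors, Cdkn1c (p57), which is enriched in quiescent stem cells, stood at 14.7, 11.98, 13.7 and 12.7 CPM in Tek_Cre and 3.66, 4.0001, 4.85 and 4.88 CPM in Prx1_Cre, a 3.05-fold fall (adjusted p past 2-fold 1.34e-05). Cdkn1a (p21) had 24.8, 24.8, 25.1 and 25.3 CPM in Tek_Cre and 36.05, 37.4, 36.98 and 39.6 CPM in Prx1_Cre and rose by log2 0.58 ± 0.06 (adjusted p = 1.27e-08). Cdkn1b (p27) was low in both groups, at 2.98, 2.44, 3.43 and 2.27 CPM in Tek_Cre and 2.71, 2.68, 2.95 and 2.17 CPM in Prx1_Cre. Its libraries overlapped and it was not called (adjusted p = 0.657). The 3 inhibitors therefore showed a fall, a rise and no detected change.

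FOXO factors and other genes of resting cells were split too. Txnip, a thioredoxin inhibitor of resting stem cells, fell from 878 ± 11.5 to 283 ± 2.67 CPM, 3.11-fold, and Foxo1 from 34.4 ± 2.39 to 14.1 ± 0.687 CPM (adjusted p past 2-fold 2.43e-15 and 0.000152). Foxo3 rose from 9.797 ± 0.4202 to 15.1 ± 0.666 CPM (adjusted p = 5.92e-08). The antiproliferative gene Btg2 fell from 219.9 ± 3.37 to 139 ± 3.99 CPM (adjusted p = 3.81e-14).

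Genes of the G1 to S transition were mostly higher. Of 15 G1 cyclins, CDKs and E2F genes, 11 rose, 2 fell and 2 were not called, with 3 and 0 past 2-fold. In shares, 73.3% rose and 20% were higher past 2-fold, against 37.8% and 7.1% of all genes. The 2 that fell were cyclins D1 and D2. Ccne1 (ENSMUSG00000002068.16; chromosome 7, 38097984 to 38107534), cyclin E1, stood at 48.8, 47.7, 51.3 and 50.4 CPM in Tek_Cre and 115, 123, 119 and 126 CPM in Prx1_Cre. It rose 2.44-fold (log2 1.28 ± 0.05, adjusted p past 2-fold 9.5e-06). The CDK-activating phosphatase Cdc25a rose from 72.6 ± 2.3999 to 144 ± 4.003 CPM and Cdk6 from 145 ± 2.404 to 169.6 ± 4.402 CPM. Ccnd1 fell from 18.6 ± 1.202 to 11.7 ± 0.493 CPM and Ccnd2 from 435 ± 21.1 to 275 ± 20.4 CPM (adjusted p = 1.17e-08 and 3.66e-12).

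Nearly all replication and mitosis genes rose. Of 40 S phase genes, 37 rose and 1 fell, with 7 and 0 past 2-fold and a median log2 fold change of 0.70. That was 92.5% that rose and 17.5% higher past 2-fold, against 37.8% and 7.1% of all genes. Of 48 G2/M and mitosis genes, 48 rose and 25 did so past 2-fold (52.1%, against 7.1% of all genes), with a median of 1.10 and a range of 0.61 to 1.93. Rrm2, the regulated subunit of ribonucleotide reductase, stood at 153, 152, 144 and 135 CPM in Tek_Cre and 432, 433, 425 and 391 CPM in Prx1_Cre, a 2.88-fold rise (adjusted p past 2-fold 2.82e-11). The origin licensing gene Cdc6 stood at 56.1, 53.6, 56.9 and 59.8 CPM against 147, 159, 149 and 155 CPM, a 2.695-fold rise (adjusted p past 2-fold 1.33e-09), and the helicase subunits Mcm2 and Mcm5 rose 1.81-fold and 2.18-fold. The libraries of the groups did not overlap for these 4 genes, which was also so for 69.3% of all genes tested.

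Mitotic genes had sharply separated levels. Ccnb1, cyclin B1, stood at 21.4, 20.3, 20.6 and 20.6 CPM in Tek_Cre and 59.6, 57.2, 58.3 and 55.5 CPM in Prx1_Cre, a 2.78-fold rise (adjusted p past 2-fold 9.44e-09). The proliferation antigen Mki67 had 68.3, 66.04, 65.8 and 63.1 CPM in Tek_Cre and 126, 118, 115 and 112 CPM in Prx1_Cre and rose 1.79-fold, which did not pass the 2-fold test. Cyclin A2 (Ccna2), the mitotic kinases Plk1 and Aurka and topoisomerase Top2a rose 2.53, 2.48, 2.68 and 2.17-fold, each past 2-fold. Cdk1 rose 1.74-fold, short of that threshold. The highest log2 fold change of the list belonged to Hmmr, a spindle-associated hyaluronan receptor, with 24.2, 20.8, 21.8 and 18.8 CPM against 85.5, 84.7, 79.1 and 76.5 CPM. Ncapg, a condensin subunit, had 18.3, 18.4, 19.3 and 15.7 CPM against 65.1, 64.04, 60.6 and 40.03 CPM, with Prx1_Cre replicate 4 the lowest of its group. These 2 genes were chosen after their values were seen.

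Promoters of the cell cycle genes are shown because E2F factors activate S phase genes through a motif near the start site, and many mitotic genes carry the cell cycle homology region, whose core is TTTGAA. The E2F letters searched were TTTCCCGC and TTTGGCGC, on both strands, in the window of 250 bases before to 50 bases after the start. They were present in 11 of the 31 S phase genes with a promoter in the RefSeq table (35.5%), in 1.80% of all 27025 promoters and in 3.42% of the 10744 of them that belong to genes tested. TTTGAA on either strand was present in 28 of 39 G2/M genes (71.8%), in 20.2% of all promoters and in 14.7% of those of genes tested. These matches are letters and not evidence of binding, and no match says only that the letters are not in this window. Capitals mark the match. The sequences are from RefSeq, GRCm38.p6, written along the gene's strand: Cdc6 chr11:98907901-98908200 (+), Mcm5 chr8:75109259-75109558 (+), Hmmr chr11:40733388-40733687 (-) and Ncapg chr5:45669675-45669974 (+). They are the 2 called-higher members of each list that hold the motif and had the largest log2 fold change.
Cdc6: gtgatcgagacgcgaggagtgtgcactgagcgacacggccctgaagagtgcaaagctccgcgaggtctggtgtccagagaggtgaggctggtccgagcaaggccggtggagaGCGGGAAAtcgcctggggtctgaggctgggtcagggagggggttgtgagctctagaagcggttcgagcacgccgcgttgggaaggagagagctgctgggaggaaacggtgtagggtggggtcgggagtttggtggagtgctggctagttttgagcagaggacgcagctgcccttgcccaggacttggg
Mcm5: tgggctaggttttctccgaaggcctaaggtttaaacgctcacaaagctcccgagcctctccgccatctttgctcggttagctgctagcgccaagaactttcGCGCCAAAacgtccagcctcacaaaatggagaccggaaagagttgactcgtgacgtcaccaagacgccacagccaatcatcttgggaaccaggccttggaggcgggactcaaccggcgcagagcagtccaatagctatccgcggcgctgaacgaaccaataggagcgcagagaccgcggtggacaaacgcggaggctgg
Hmmr: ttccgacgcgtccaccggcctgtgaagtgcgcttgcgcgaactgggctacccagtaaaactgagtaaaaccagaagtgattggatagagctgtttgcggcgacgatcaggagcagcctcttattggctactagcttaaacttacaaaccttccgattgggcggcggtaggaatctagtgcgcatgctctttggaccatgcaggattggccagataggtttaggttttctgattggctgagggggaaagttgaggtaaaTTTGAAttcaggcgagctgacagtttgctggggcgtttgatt
Ncapg: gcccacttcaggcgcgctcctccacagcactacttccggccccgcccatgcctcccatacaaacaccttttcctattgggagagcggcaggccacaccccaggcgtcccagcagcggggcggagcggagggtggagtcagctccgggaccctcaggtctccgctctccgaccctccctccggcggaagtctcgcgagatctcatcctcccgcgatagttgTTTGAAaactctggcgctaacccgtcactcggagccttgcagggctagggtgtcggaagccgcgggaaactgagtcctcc
In Cdc6, Mcm5 and Ncapg the match begins 138, 149 and 30 bases upstream of the start site, and in Hmmr 9 bases downstream of it.

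Most DNA repair genes coupled to replication rose as well. Of 31 Fanconi anemia and homologous recombination genes, 29 rose and 0 fell, 8 past 2-fold. That was 93.5% that rose and 25.8% higher past 2-fold, against 37.8% and 7.1% of all genes. Fancd2, the subunit that is monoubiquitinated at crosslinks, stood at 21.3, 22.2, 20.5 and 18.3 CPM in Tek_Cre and 64.3, 66.8, 60.9 and 59.5 CPM in Prx1_Cre, a 3.05-fold rise (adjusted p past 2-fold 1.84e-09). Brca1 rose 2.03-fold, from 23.7 ± 2.78 to 48.1 ± 4.85 CPM, and did not pass the 2-fold test (adjusted p = 0.602). Of 35 p53 targets, 19 rose and 11 fell, with 3 and 4 past 2-fold (8.57% and 11.4%, against 7.1% and 12.4% of all genes). Gadd45a, a growth arrest and repair gene, rose 2.39-fold (adjusted p past 2-fold 0.00045).

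Ribosome biogenesis genes rose while Myc itself did not differ detectably. Myc (ENSMUSG00000022346.14; chromosome 15, 61985391 to 61990374) had 434, 417, 426 and 460.3 CPM in Tek_Cre and 434, 436, 442 and 480.0 CPM in Prx1_Cre, overlapping between groups (adjusted p = 0.353). Mycn, its paralog enriched in immature cells, had 264, 257, 259 and 274 CPM in Tek_Cre and 91.6, 85.9, 88.3 and 92.1 CPM in Prx1_Cre and fell 2.94-fold (adjusted p past 2-fold 1.91e-11). Max, the shared dimer partner, rose from 27.1 ± 1.07 to 62.8 ± 2.17 CPM (adjusted p past 2-fold 0.000692). Of 12 genes of the MYC network, 5 rose and 5 fell, with 1 and 3 past 2-fold. At 41.7% each way, the first shares lay near the 37.8% and 39.8% of all genes. Past 2-fold the network shares were 8.33% higher and 25% lower, against 7.1% and 12.4%. Of 48 ribosome biogenesis genes known as MYC-bound, 45 rose and 1 fell, and their median log2 fold change was 0.72. That was 93.75% that rose, against 37.8% of all genes. Only 5 passed 2-fold, which is 10.4% against 7.1%. Nucleolin (Ncl) rose from 673 ± 21.1 to 1348 ± 40.9 CPM and nucleophosmin (Npm1) from 97.5 ± 5.59 to 189 ± 22.7 CPM (adjusted p = 1.56e-17 and 2.27e-12). Odc1, the first enzyme of polyamine synthesis, rose 2.34-fold, from 55.4, 57.7, 52.98 and 56.1 CPM in Tek_Cre to 131, 128, 127 and 133 CPM in Prx1_Cre (adjusted p past 2-fold 2.34e-05).

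**Figure D3:**
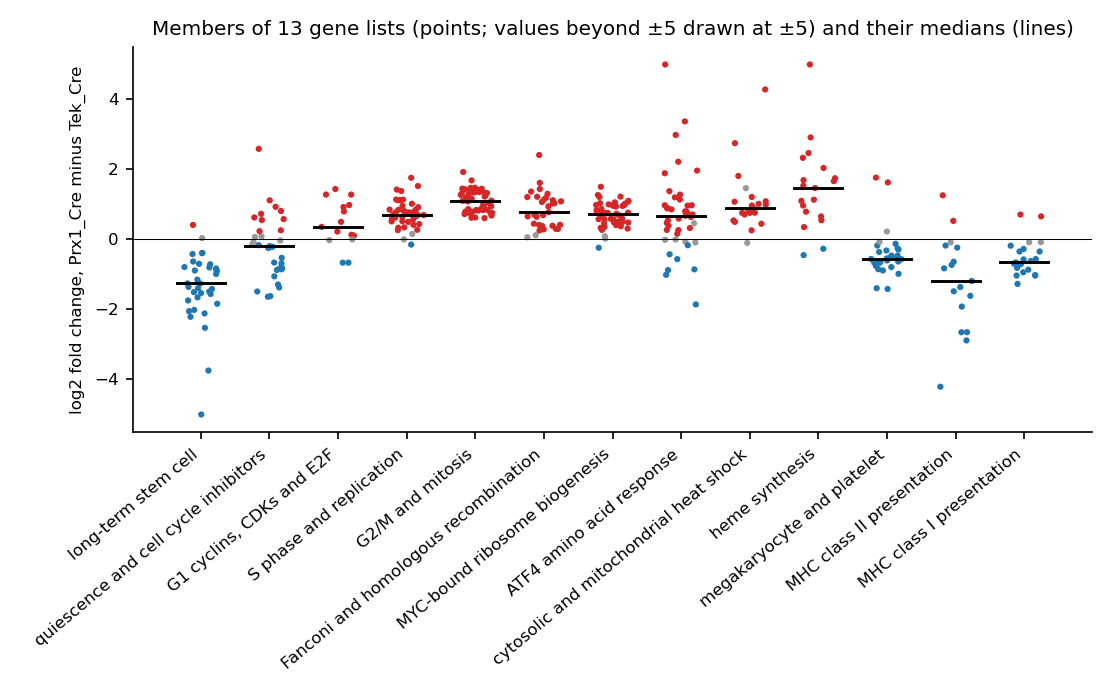
Log2 fold changes (Prx1_Cre minus Tek_Cre) of the tested members of 13 gene lists, 1 point per gene, with red for genes that rose, blue for genes that fell, grey for genes not called and a line for the median. The G2/M and mitosis members all lie above 0, and the long-term stem cell and MHC lists have medians below 0.

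Amino acid synthesis and stress genes under ATF4 were mostly higher in Prx1_Cre. ATF4 is a transcription factor whose translation increases when amino acids are short or the endoplasmic reticulum is stressed, and it activates amino acid synthesis and transport genes. Of 51 genes listed, 42 were tested, 30 rose and 7 fell, with 9 and 1 past 2-fold. In shares, 71.4% rose and 16.7% fell, against 37.8% and 39.8% of all genes. Past 2-fold it was 21.4% and 2.38%, against 7.1% and 12.4%. Atf4 had 134, 134, 134 and 134 CPM in Tek_Cre and 226, 229, 236 and 242 CPM in Prx1_Cre and rose 1.74-fold (adjusted p = 9.91e-16). Asns (ENSMUSG00000029752.12; chromosome 6, 7675169 to 7693254), asparagine synthetase, had 52.95, 52.5, 48.1 and 46.4 CPM in Tek_Cre and 528, 528, 524 and 489 CPM in Prx1_Cre. It rose 10.3-fold (log2 3.37 ± 0.05, adjusted p past 2-fold 2.73e-24), while the No_Cre libraries had 63.96 ± 0.749 CPM. Atf3, a factor induced by ATF4, rose 7.91-fold, from 4.16, 4.58, 4.24 and 4.38 CPM to 32.4, 33.7, 34.4 and 36.9 CPM (adjusted p past 2-fold 6.32e-17).

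Other members of the list also rose past 2-fold. Mthfd2, the mitochondrial folate enzyme, rose from 25.98 ± 0.939 to 121 ± 5.66 CPM and the pseudokinase Trib3 from 18.03 ± 2.88 to 46.3 ± 4.05 CPM (adjusted p past 2-fold 2.61e-17 and 0.000106). Ddit3 (CHOP), the factor linked to stress-induced death, rose 1.96-fold and did not pass the 2-fold test. Cth, which makes cysteine from cystathionine, had 0 counts in all 4 Tek_Cre libraries and 28.4, 28.5, 26.9 and 26.6 CPM in Prx1_Cre. Against a floor of 3 counts over the Tek_Cre group this was at least 728-fold higher (adjusted p past 2-fold 1.38e-18). The No_Cre libraries had 0.236 ± 0.103 CPM of Cth.

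Promoters of Asns and Atf3 are shown because a C/EBP-ATF response element is known at both genes. The letters searched were TGATGNAA, on both strands. They were present in 12 of the 35 listed genes with a promoter in the table (34.3%), in 4.51% of all 27025 promoters and in 2.82% of the 10744 of genes tested. Of the 12, 7 rose and 4 fell, so genes with the motif moved in both directions. The sequences are from RefSeq, GRCm38.p6, at chr6:7693160-7693459 (-) and chr1:191183284-191183583 (-), with the match in capitals.
Asns: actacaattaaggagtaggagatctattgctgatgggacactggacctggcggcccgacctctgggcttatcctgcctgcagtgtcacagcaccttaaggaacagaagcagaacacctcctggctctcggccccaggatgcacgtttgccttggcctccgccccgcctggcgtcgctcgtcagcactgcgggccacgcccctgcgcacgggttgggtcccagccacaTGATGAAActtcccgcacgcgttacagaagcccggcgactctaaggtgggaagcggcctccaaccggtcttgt
Atf3: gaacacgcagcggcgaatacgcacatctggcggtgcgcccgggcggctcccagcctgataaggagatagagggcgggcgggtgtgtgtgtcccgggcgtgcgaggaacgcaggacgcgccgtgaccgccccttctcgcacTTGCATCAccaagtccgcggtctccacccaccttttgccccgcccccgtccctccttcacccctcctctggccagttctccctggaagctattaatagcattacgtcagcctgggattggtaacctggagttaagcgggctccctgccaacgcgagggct
In Atf3 the letters appear on the opposite strand, as TTGCATCA.

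Protein-folding genes were counted by compartment. Of 22 cytosolic and mitochondrial heat shock genes tested, 20 rose and 0 fell by edgeR, and 5 rose past 2-fold. That was 90.9% that rose and 22.7% higher past 2-fold, against 37.8% and 7.1% of all genes. The number that fell was also 0 at an unadjusted p under 0.05 and with DESeq2. The count that fell was 1 without the filter on low counts, and also 1 without Prx1_Cre replicate 4. Without that library Bag3, a co-chaperone, was called lower (log2 -0.18, adjusted p = 0.0297). With all libraries Bag3 stood at 19.9 ± 0.928 CPM in Tek_Cre and 18.6 ± 2.35 CPM in Prx1_Cre and was not called (adjusted p = 0.293). The constitutive chaperone Hspa8 had 221, 220.1, 231 and 224 CPM in Tek_Cre and 468, 476, 469.7 and 498 CPM in Prx1_Cre, a 2.13-fold rise (adjusted p past 2-fold 0.00912). The inducible chaperones Hspa1a and Hspa1b rose 6.85-fold and 19.7-fold; they are near-identical, so the split of reads between them is uncertain. Of 30 endoplasmic reticulum chaperone and unfolded protein response genes, 14 rose and 15 fell, and 1 and 6 passed 2-fold. The shares past 2-fold were 3.33% and 20%, against 7.1% and 12.4% of all genes. The chaperone Hspa5 (BiP) rose from 1061 ± 55.9 to 1692 ± 82.4 CPM (adjusted p = 5.85e-13). Xbp1, the unfolded protein response factor that plasma cells depend on, had 1156, 1181, 1156 and 1150.2 CPM in Tek_Cre and 259.7, 252, 256 and 254 CPM in Prx1_Cre and fell 4.54-fold, and Derl3, a degradation factor of secretory cells, fell 48.7-fold (adjusted p past 2-fold 4.14e-21 and 2.22e-25). Xbp1 and Derl3 also stand in the plasma cell list described below.

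Erythroid genes had the highest median log2 fold change of the 46 lists. Of 39 listed, 38 were tested, 33 rose, 30 of them past 2-fold, and 4 fell, and the median was 3.03. The share past 2-fold was 78.9%, against 7.1% of all genes tested. Klf1 (ENSMUSG00000054191.8; chromosome 8, 84901928 to 84905291), the transcription factor that activates red cell genes, had 10.6, 10.5, 9.33 and 9.71 CPM in Tek_Cre and 249, 249, 249 and 283 CPM in Prx1_Cre. It rose 25.7-fold (log2 4.68 ± 0.06, adjusted p past 2-fold 2.22e-25), with the highest value in Prx1_Cre replicate 4. Gata1, which acts upstream of it, rose 2.95-fold, from 79.2, 76.9, 88.4 and 94.2 CPM to 242, 241, 246 and 269 CPM (adjusted p past 2-fold 3.2e-10). The erythropoietin receptor Epor rose 4.69-fold, from 24.6 ± 0.785 to 115 ± 9.13 CPM (adjusted p past 2-fold 2.06e-16).

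Genes of committed red cell precursors were low in Tek_Cre. Car1, carbonic anhydrase 1, had 26.9, 29.3, 26.97 and 29.2 CPM in Tek_Cre and 1723, 1736, 1713 and 1618 CPM in Prx1_Cre, a 60.4-fold rise (adjusted p past 2-fold 1.3e-30), and 163 ± 4.38 CPM in No_Cre. Rhd, a blood group antigen, rose 33.03-fold. The beta-globin gene Hbb-bt, which is near-identical to other globin genes so that its counts are uncertain, rose from 8.03 ± 1.06 to 35.6 ± 1.56 CPM. The 4 that fell, named after their values were seen, were Apoe, Nfe2, Lmo2 and Zfpm1, of which the last 3 encode transcription factors or cofactors shared with stem cells and megakaryocytes. Tal1 was not called.

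Most heme synthesis genes rose alongside the erythroid genes. Of 19 heme synthesis genes, 17 rose and 2 fell, with 10 and 0 past 2-fold. In shares, 89.5% rose and 52.6% were higher past 2-fold, against 37.8% and 7.1% of all genes. Alas2, the erythroid form of the first enzyme, had 0.964, 0.887, 0.912 and 0.537 CPM in Tek_Cre and 34.6, 34.6, 34.2 and 37.5 CPM in Prx1_Cre, a 42.7-fold rise (adjusted p past 2-fold 9.38e-20). The housekeeping form Alas1 rose 4.12-fold and Fech, which inserts the iron, 2.78-fold. In the sphingosine 1-phosphate list, 8 of 15 genes rose and 7 fell, with 3 past 2-fold each way. That was 20% each way past 2-fold, against 7.1% and 12.4% of all genes. Sphk1, the kinase that makes this lipid, had 0.9197, 1.11, 1.82 and 1.198 CPM against 247, 246, 243 and 277 CPM, a 201-fold rise (adjusted p past 2-fold 8.29e-26). Mfsd2b, the exporter of red cells and platelets, rose 3.43-fold while Spns2, another exporter, fell 2.42-fold, both past 2-fold.

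Most megakaryocyte and platelet genes fell, mainly by less than 2-fold. Of 29 tested, 25 fell and 2 rose, 2 and 1 past 2-fold, with a median of -0.54. The share lower past 2-fold was 6.90%, against 12.4% of all genes tested. Pf4, a platelet chemokine, had 125, 129, 129 and 133 CPM in Tek_Cre and 90.8, 95.2, 93.4 and 95.98 CPM in Prx1_Cre and fell by log2 -0.46 ± 0.04 (adjusted p = 8.56e-11). Vwf fell from 86.9 ± 1.61 to 56.3 ± 5.77 CPM and Itga2b (CD41) from 784 ± 52.5 to 613 ± 63.8 CPM (adjusted p = 4.3e-10 and 3.33e-06).

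Neutrophil genes were counted by granule class. Of 22 early (azurophil) granule genes, 16 rose and 5 fell, with 9 and 0 past 2-fold. In shares, 72.7% rose and 40.9% were higher past 2-fold, against 37.8% and 7.1% of all genes. Mpo, myeloperoxidase, had 1073, 1076, 1132 and 1201 CPM in Tek_Cre and 10989.9, 10987, 11083 and 12654 CPM in Prx1_Cre, a 10.2-fold rise (adjusted p past 2-fold 1.23e-23). The serine proteases Elane, Ctsg and Prtn3 rose 4.97, 13.03 and 3.11-fold, each past 2-fold. Gfi1, a repressor of neutrophil and stem cell programs, had 70.6, 76.8, 77.8 and 78.2 CPM against 80.9, 78.9, 79.3 and 83.6 CPM, and was not called although its libraries did not overlap (adjusted p = 0.0686, and 0.0331 to 0.0487 in the 5 alternatives that called it). Of 27 late granule genes, 13 rose and 13 fell, with 1 past 2-fold each way. That was 3.7% each way past 2-fold, below the 7.1% and 12.4% of all genes. S100a8, a subunit of calprotectin, fell from 3495 ± 299.7 to 1941 ± 321 CPM and Camp, the cathelicidin, from 3727 ± 161 to 2156 ± 122 CPM, while Ltf, lactoferrin, rose from 7484 ± 248 to 10264 ± 596 CPM and Ngp from 11199 ± 345 to 13136 ± 404 CPM.

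Monocyte and dendritic cell genes were divided, with 13 of 28 rising and 13 falling. Past 2-fold, 7 rose and 5 fell, which is 25% and 17.9% against 7.1% and 12.4% of all genes. Csf1r, the receptor for macrophage colony-stimulating factor, had 6.61, 8.80002, 5.899 and 7.104 CPM in Tek_Cre and 21.1, 19.8, 19.05 and 22.1 CPM in Prx1_Cre, a 2.89-fold rise (adjusted p past 2-fold 1.04e-05). F13a1, factor XIII of monocytes, rose 34.2-fold, from 3.52 ± 0.705 to 120.3 ± 5.22 CPM, and Ccr2, the monocyte chemokine receptor, 70.3-fold from 0.1197 ± 0.0404 CPM. Irf8, a factor of monocyte and dendritic fate, rose 1.99-fold, short of the 2-fold test. Zbtb46, a factor of classical dendritic cells, rose from 0.655 ± 0.0716 to 29.4 ± 2.295 CPM. Among those that fell, the monocyte surface antigen gene Ly6c2, whose counts are uncertain because of similar Ly6 genes, went from 623 ± 9.18 to 270.2 ± 2.29 CPM. The macrophage lysosomal gene Cd68, chosen after its values were seen, fell from 80.4 ± 5.25 to 25.5 ± 1.703 CPM (adjusted p past 2-fold 2.03e-06 and 5.16e-11).

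Most mast cell genes fell and most eosinophil genes rose. Of 25 mast cell and basophil genes, 20 fell and 3 rose, with 9 and 1 past 2-fold. Past 2-fold this was 36% lower and 4% higher, against 12.4% and 7.1% of all genes. Fcer1a, the IgE receptor chain, had 278, 281, 253 and 238 CPM in Tek_Cre and 83.9, 83.8, 81.6 and 59.2 CPM in Prx1_Cre, a 3.402-fold fall (adjusted p past 2-fold 2.63e-08), lowest in Prx1_Cre replicate 4. The mast cell proteases Cma1 and Tpsb2 fell 3.38-fold and 5.13-fold, while the basophil protease Mcpt8 rose 5.66-fold, from 3.29 ± 0.365 to 18.6 ± 1.31 CPM. Gata2, which serves stem cells and mast cells, fell 1.73-fold and Cpa3 1.92-fold, short of the 2-fold test. Of 18 eosinophil genes listed, 13 were tested, 12 rose and 1 fell, with 8 and 0 past 2-fold. In shares, 92.3% rose and 61.5% were higher past 2-fold, against 37.8% and 7.1% of all genes. Epx, eosinophil peroxidase, had 1.97, 3.62, 3.27 and 2.97 CPM in Tek_Cre and 72.7, 76.8, 76.6 and 89.2 CPM in Prx1_Cre, a 26.6-fold rise (adjusted p past 2-fold 3.26e-21). Prg2, the granule major basic protein, rose 18.8-fold and the lipoxygenase Alox15 118-fold. The No_Cre libraries had 414 ± 9.25 CPM of Epx and 1111 ± 22.6 CPM of Prg2.

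**Figure D4:**
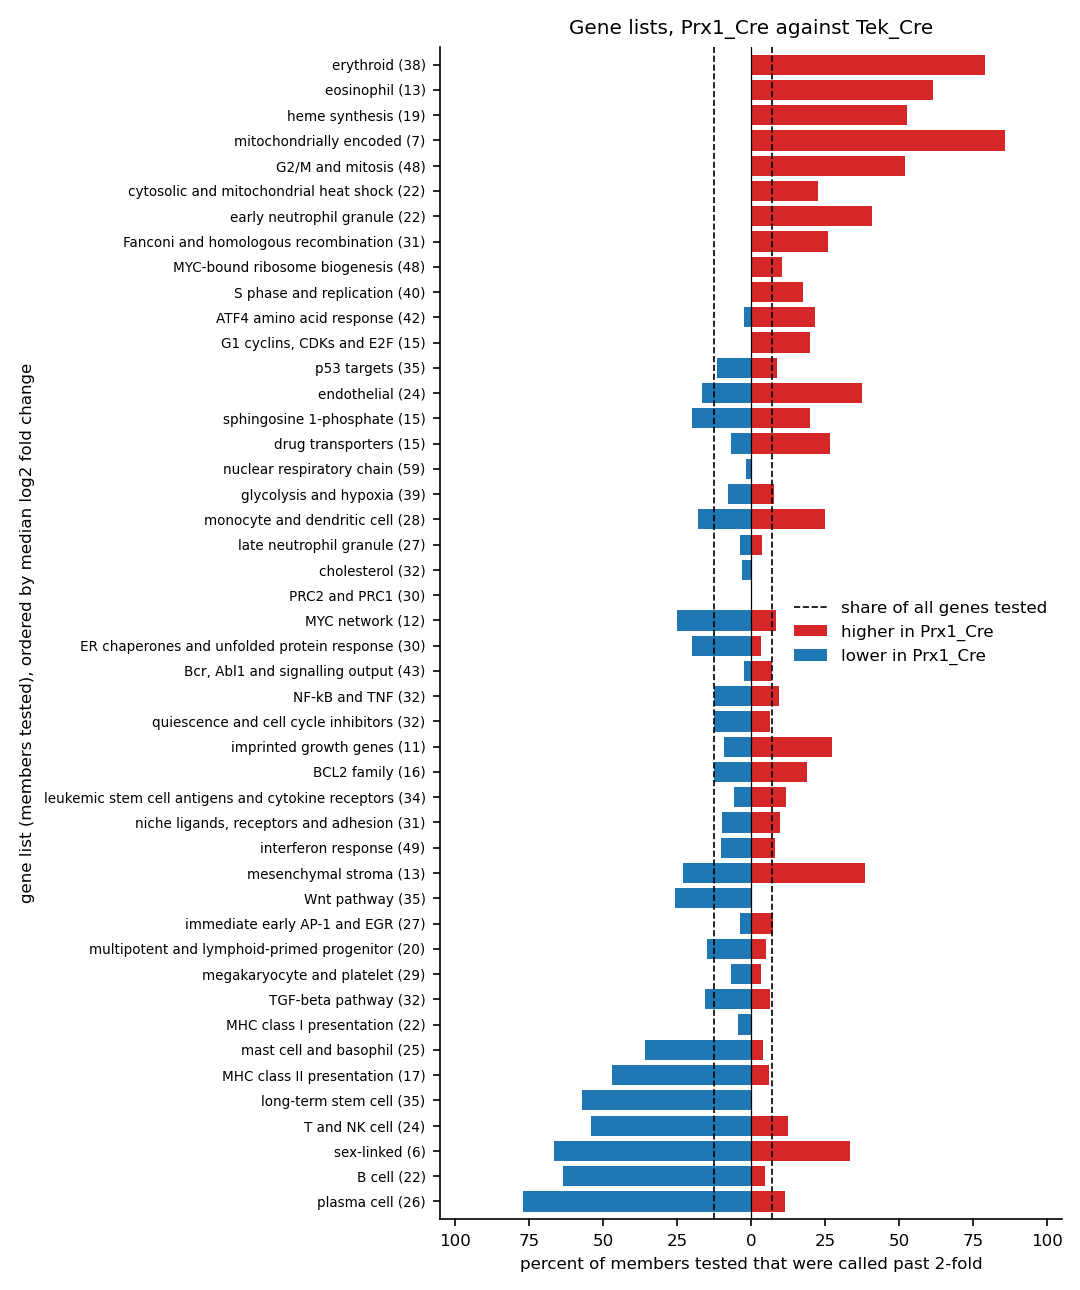
Percent of the tested members of each of 46 gene lists called past 2-fold, with red bars to the right for genes higher in Prx1_Cre and blue bars to the left for genes lower in Prx1_Cre. Dashed lines mark the share over all genes tested, 7.1% higher and 12.4% lower, and lists are ordered by median log2 fold change, with the number tested in brackets. Erythroid, eosinophil, heme and mitochondrially encoded genes stand at the top, and plasma cell, B cell and long-term stem cell genes near the bottom.

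Antibody-forming genes were far lower in Prx1_Cre. Of 147 immunoglobulin genes tested, 137 fell and 2 rose past 2-fold, against 12.4% and 7.1% of all genes tested. The gene Igkv12-46 took 6.76 to 7.27% of the counts of kappa V genes in Tek_Cre and 99.3 to 99.4% in Prx1_Cre (exact p = 0.0286, the smallest possible, adjusted p = 0.0381). V genes are similar in sequence, so the share of a single V gene is uncertain. Of 26 plasma cell genes tested, 23 fell and 3 rose, with 20 and 3 past 2-fold. Past 2-fold this was 76.9% lower and 11.5% higher, against the same background. The 3 that rose, named after their values were seen, were Ccr10, Cd28 and Prg2, the last also an eosinophil gene.

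Plasma cell regulators and secreted products fell together. Jchain (ENSMUSG00000067149.6; chromosome 5, 88519809 to 88527891), which joins antibody polymers, had 899, 898, 881 and 819.6 CPM in Tek_Cre and 6.54, 8.66, 6.43 and 5.67 CPM in Prx1_Cre, a 128-fold fall (log2 -7.00 ± 0.07, adjusted p past 2-fold 1.8e-28). Prdm1 (Blimp-1), the factor that commits B cells to secretion, fell 27.3-fold, from 10.9 ± 1.53 to 0.398 ± 0.0971 CPM. Irf4, its partner, had 26.3, 29.3, 27.3 and 32.3 CPM in Tek_Cre and 0 counts in all 4 Prx1_Cre libraries, at least 1024-fold lower against a floor of 3 counts over the group. Sdc1 (CD138) fell 38.9-fold, the chaperone Mzb1 49.3-fold and the coactivator Pou2af1 139-fold, each past 2-fold. Slpi, a secreted protease inhibitor, fell from 11107 ± 529 to 142 ± 10.4 CPM. For both of these genes the No_Cre libraries lay between, with 216 ± 6.63 CPM of Jchain and 3168 ± 48.9 CPM of Slpi. Over the 27 plasma cell genes in the table, summed levels were 15671 to 16826 CPM in the Tek_Cre libraries and 1669 to 1756 CPM in the Prx1_Cre libraries. Their part in the other differences was not tested, beyond a fit without immunoglobulin genes, which left 1030 genes higher and 1742 lower past 2-fold.

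B cell genes were mostly lower in Prx1_Cre. Of 28 listed, 22 were tested, 15 fell and 3 rose, with 14 and 1 past 2-fold. Past 2-fold this was 63.6% lower and 4.55% higher, against 12.4% and 7.1% of all genes. Cd79a, a chain of the B cell receptor, had 78.2, 78.3, 76.7 and 78.7 CPM in Tek_Cre and 0.0981, 0.165, 0.1797 and 0.334 CPM in Prx1_Cre, a 402-fold fall (adjusted p past 2-fold 9.72e-26). Pax5, the B cell identity factor that plasma cells switch off, had 0 counts in both groups, also in the Tek_Cre libraries that held the immunoglobulin RNA.

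T and NK cell genes were mostly lower in Prx1_Cre. Of 35 listed, 24 were tested, 18 fell and 4 rose, with 13 and 3 past 2-fold. The share lower past 2-fold was 54.2%, against 12.4% of all genes, and the median log2 fold change was -1.41. Gata3, a factor of T cells and other lymphoid cells, fell from 47.97 ± 3.28 to 10.2 ± 0.689 CPM and Gzmb, a cytotoxic granule protease, from 63.6 ± 1.33 to 29.01 ± 1.83 CPM (adjusted p past 2-fold 6.12e-15 and 0.0104). The defining T cell genes were at or near 0: Cd3e had 1 count in Tek_Cre and 0 in Prx1_Cre, and Cd8a had 0 in both. The kinase Lck fell from 21.6 ± 1.82 to 10.5 ± 0.647 CPM (adjusted p = 7.59e-12), and the granule gene Nkg7, also expressed in neutrophil precursors, rose from 183 ± 6.19 to 256 ± 4.19 CPM (adjusted p = 1.54e-11).

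Antigen presentation genes of both MHC classes mostly fell, those of class I mainly by less than 2-fold. Of 17 MHC class II genes, 14 fell and 2 rose, with 8 and 1 past 2-fold and a median log2 fold change of -1.19. Cd74, the invariant chain, had 712, 746, 772 and 807 CPM in Tek_Cre and 40.8, 39.5, 37.1 and 47.4 CPM in Prx1_Cre, a 18.4-fold fall (adjusted p past 2-fold 6.76e-25). Ciita, the master regulator of class II genes, fell 6.13-fold, from 3.504, 3.697, 3.11 and 4.13 CPM to 0.294, 0.371, 0.647 and 1.04 CPM. H2-Aa and H2-Ab1, which encode the class II chains, fell 7.4001-fold and 3.05-fold; H2 genes share sequence, so their counts are uncertain. Of 22 class I genes, 18 fell and 2 rose, with 1 and 0 past 2-fold and a median of -0.63. The share lower past 2-fold was 4.55% in class I and 47.1% in class II, against 12.4% of all genes tested. B2m, the light chain of class I, fell from 1721 ± 85.2 to 1124 ± 110.3 CPM and its activator Nlrc5 from 65.2 ± 3.68 to 32.3 ± 1.903 CPM (adjusted p = 1.86e-10 and 1.35e-13).

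Interferon response genes were mixed. Of 49 tested, 29 fell and 13 rose, with 5 and 4 past 2-fold. The shares past 2-fold were 10.2% and 8.16%, against 12.4% and 7.1% of all genes. Zbp1, a nucleic acid sensor, had 108, 108, 114 and 112 CPM in Tek_Cre and 12.6, 11.7, 9.41 and 11.97 CPM in Prx1_Cre, with no overlap. It fell 9.68-fold, the GTPase Gbp2 3.17-fold and Oasl2 2.21-fold, each past 2-fold. Irf7 rose from 31.7 ± 3.05 to 40.9 ± 0.448 CPM, and Ifit1 rose 2.39-fold (adjusted p past 2-fold 0.01799).

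Immediate early, TGF-beta and Wnt genes fell more often than they rose. Of 27 immediate early genes, 19 fell and 4 rose, but past 2-fold 1 fell and 2 rose, which is 3.70% and 7.41% against 12.4% and 7.1% of all genes. Fos had 4014, 3926, 4062 and 4286 CPM in Tek_Cre and 2745, 2715, 2769 and 3033 CPM in Prx1_Cre, a 1.45-fold fall, and Jun and Egr1 fell 1.69-fold and 2.22-fold, the last past 2-fold. The 2 that rose past 2-fold were Atf3, described above, and Egr2, from 0.814 ± 0.338 to 3.68 ± 0.574 CPM. These transcripts respond within minutes to cell handling, and their levels in No_Cre were 6033 ± 155 CPM for Fos and 1671 ± 64.8 CPM for Egr1. Of 32 TGF-beta pathway genes, 22 fell and 4 rose, with 5 and 2 past 2-fold (15.6% and 6.25%, against the same background). The receptor Tgfbr2 fell from 122 ± 5.38 to 60.8 ± 4.597 CPM, the ligand Tgfb3 from 10.8 ± 0.949 to 0.6403 ± 0.2597 CPM and the latent binding protein Ltbp3 3.33-fold.

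Wnt components fell in part. Of 35 tested, 21 fell and 4 rose, with 9 and 0 past 2-fold. In shares, 60% fell and 25.7% were lower past 2-fold, against 39.8% and 12.4% of all genes. The receptor Fzd8 had 25.6, 21.8, 20.8 and 24.9 CPM in Tek_Cre and 0.8498, 1.07, 0.755 and 1.08 CPM in Prx1_Cre, a 24.7-fold fall (adjusted p past 2-fold 3.92e-18), and the nuclear factor Tcf7l2 fell 2.63-fold. Ctnnb1, beta-catenin, stood at 388 ± 11.5 and 400.2 ± 9.31 CPM and was not called (adjusted p = 0.267). Of 32 NF-kB and TNF genes, 12 rose and 16 fell, with 3 and 4 past 2-fold (9.38% and 12.5%, against 7.1% and 12.4% of all genes). Tnfaip3, the feedback inhibitor A20, rose 2.34-fold (adjusted p past 2-fold 0.000171).

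The genes at the ends of the CML fusion were lower in Prx1_Cre. Bcr had 11.8, 12.6, 12.4 and 13.6 CPM in Tek_Cre and 8.82, 6.35, 8.01 and 7.59 CPM in Prx1_Cre and fell 1.64-fold, and Abl1 had 98.8, 103, 106 and 109.6 CPM against 69.1, 70.1, 71.9 and 86.6 CPM and fell 1.401-fold (adjusted p = 9.39e-07 and 4.75e-08). The labels do not say whether the animals carry a transgene of this fusion, and reads from one could have been counted at either gene. Of 43 genes of the kinase, its adaptors and its output, 17 rose and 22 fell, 3 and 1 past 2-fold. The shares past 2-fold were 6.98% and 2.33%, against 7.1% and 12.4% of all genes. The STAT5 targets Socs2 and Cish fell 1.76-fold and 1.46-fold. Of 34 leukemic stem cell antigens and cytokine receptors, 12 rose and 20 fell, with 4 and 2 past 2-fold (11.8% and 5.88%). Il1rap, a surface antigen of CML stem cells, rose from 15.6 ± 1.0004 to 23.3 ± 1.47 CPM and Csf2rb, the shared receptor for interleukin-3, fell from 169.9 ± 10.4 to 123 ± 5.58 CPM (adjusted p = 3.05e-07 and 3.15e-09).

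Polycomb genes changed little in size. Of 30 PRC2 and PRC1 genes, 11 rose and 13 fell, which is 36.7% and 43.3% against 37.8% and 39.8% of all genes. In either direction 0 passed 2-fold (0 also with DESeq2), against 7.1% and 12.4%, while 24 were under an adjusted p of 0.05. Ezh2, the methyltransferase of cycling cells, had 53.9, 56.5, 53.2 and 49.7 CPM in Tek_Cre and 97.2, 90.9, 92.2 and 77.8 CPM in Prx1_Cre and rose 1.68-fold, while its paralog Ezh1, prominent in resting cells, had 106, 106, 113 and 107 CPM against 57.8, 59.7, 58.2 and 60.4 CPM and fell 1.83-fold (adjusted p = 3.66e-11 and 5.46e-15).

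Survival, transport and metabolism genes moved in both directions. Of 16 BCL2 family genes, 4 rose and 8 fell, with 3 and 2 past 2-fold. That was 18.75% higher and 12.5% lower past 2-fold, against 7.1% and 12.4% of all genes. Bid, a death-promoting member, rose from 77.4 ± 1.09 to 171 ± 4.89 CPM and Bok, another, fell from 21.6 ± 1.76 to 8.26 ± 0.662 CPM (adjusted p past 2-fold 0.000527 and 8.93e-05). Bcl2 and Mcl1, which protect cells from death, fell 1.26-fold and 1.12-fold, the second with overlapping libraries. Of 15 drug transporters, 7 rose and 7 fell, with 4 and 1 past 2-fold, which is 26.7% and 6.67% against 7.1% and 12.4% of all genes. Abcb4, a phospholipid exporter, had 15.2, 13.8, 15.4 and 14.4 CPM in Tek_Cre and 223, 225, 222 and 231 CPM in Prx1_Cre, a 15.3-fold rise (adjusted p past 2-fold 4.09e-25), while Abcb1a and Abcb1b, near-identical pumps of the same family whose reads may be split, fell 2.001-fold and 1.93-fold. The nucleoside carrier Slc29a1 rose 4.02-fold. Of 39 glycolysis and hypoxia genes, 18 rose and 13 fell, with 3 past 2-fold each way (7.69% each, against the same background). Hif1a rose 1.602-fold, the glucose carrier Slc2a1 fell 1.74-fold and the lactate carrier Slc16a1 rose 3.18-fold, the last past 2-fold. Of 32 cholesterol genes, 13 rose and 13 fell, with 0 and 1 past 2-fold (0% and 3.125%). Among 11 imprinted growth genes tested, 4 rose and 5 fell, with 3 and 1 past 2-fold (27.3% and 9.09%). The background for both lists was again 7.1% and 12.4%.

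Respiratory genes were counted by the genome that encodes them. Of 59 nuclear genes of the respiratory chain, 26 rose and 18 fell, 0 and 1 past 2-fold. That was 0% and 1.69% past 2-fold, against 7.1% and 12.4% of all genes. Of 7 mitochondrially encoded genes tested, 7 rose and 6 did so past 2-fold (85.7%, against 7.1% of all genes). The gene mt-Cytb had 506, 482, 424 and 439 CPM in Tek_Cre and 1759, 1584, 1585 and 1154 CPM in Prx1_Cre, a 3.28-fold rise (adjusted p past 2-fold 4.18e-07), and mt-Nd1 rose 2.62-fold. Mitochondrially encoded genes took 0.105 to 0.126% of counts in Tek_Cre and 0.282 to 0.456% in Prx1_Cre, lowest in Prx1_Cre replicate 4 (exact p = 0.0286, the smallest possible, adjusted p = 0.0381). This share moves with RNA quality and cell state, and its part in the result was not tested.

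Defining markers of the cells that the Cre lines target were at 0 or low. Among stromal markers, Prrx1 had 0 counts in both groups, Pdgfra had 6 counts in Tek_Cre and 0 in Prx1_Cre, Lepr had 2 and 37, and Col1a1 stood at 1.87 ± 0.386 and 1.53 ± 0.285 CPM (adjusted p = 0.231). The 28 stromal genes summed to 146 to 160.2 CPM in the Tek_Cre libraries and 155 to 159 CPM in the Prx1_Cre libraries. Similar sums hid changes in both directions: of 13 tested, 5 rose and 6 fell, with 5 and 3 past 2-fold. These stromal shares past 2-fold were 38.5% and 23.1%, against 7.1% and 12.4% of all genes tested. The 26 endothelial genes summed to 803 to 887 CPM in the Tek_Cre libraries and 513 to 566 CPM in the Prx1_Cre libraries. Among the 24 endothelial genes tested, 12 rose and 11 fell, with 9 and 4 past 2-fold. Past 2-fold this was 37.5% higher and 16.7% lower, against 7.1% and 12.4% of all genes tested. Cdh5 (VE-cadherin) had 0 counts in Tek_Cre and 33 in Prx1_Cre, at least 8.26-fold higher by the same floor of 3 counts. Like Prrx1, Pdgfra and Lepr, it did not pass the filter. Plvap rose from 2.78 ± 0.397 to 10.8 ± 0.496 CPM, Kdr from 1.96 ± 0.359 to 4.59 ± 0.859 CPM and Fabp4 from 0.232 ± 0.129 to 7.58 ± 0.476 CPM, whereas Pecam1, which stem cells express too, fell from 71.9 ± 2.03 to 45.4 ± 2.75 CPM.

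Sex-linked genes separated the groups. Y-linked transcripts (Ddx3y, Eif2s3y, Kdm5d and Uty) summed to 69.9 to 82.4 CPM in Tek_Cre and 17.6 to 21.4 CPM in Prx1_Cre. Xist, the RNA of the inactive X chromosome, had 1.45, 1.77, 1.39 and 1.32 CPM in Tek_Cre and 16.2, 14.8, 16.5 and 13.3 CPM in Prx1_Cre (exact p = 0.0286 for each, the smallest possible, adjusted p = 0.0381). Both kinds of transcript were present in all 8 libraries. The labels give no sex, so the sex of the animals and the Cre line cannot be told apart as sources of the other differences.

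The largest changes outside immunoglobulin genes were close to on or off. They were taken among protein-coding genes past 2-fold with at least 5 CPM in the higher group and no overlap. Among called genes, 110 had no count in any Tek_Cre library and 212 none in any Prx1_Cre library. The 10 largest upward changes were Cth, described above, Sfrp4, Arhgdig, Prss50, Sh2d4a, Fgd6, Avil, Dab2, Atp4a and Abcg4. Sfrp4, a secreted Wnt antagonist, had 0 counts in Tek_Cre and 24.3, 22.2, 23.2 and 22.4 CPM in Prx1_Cre, at least 608-fold higher. Arhgdig, a GDP dissociation inhibitor, had 0 counts against 14.7, 15.2, 15.1 and 19.4 CPM, at least 425-fold higher. Dab2, an endocytic adaptor, and Fgd6 also had 0 counts in Tek_Cre, with bounds of at least 145-fold and 191-fold. Prss50, Sh2d4a, Avil, Atp4a and Abcg4 had 1, 2, 3, 2 and 5 counts over the 4 Tek_Cre libraries against 3904, 4490, 4867, 2448 and 5012 over the 4 Prx1_Cre libraries.

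The 10 largest downward changes had no counts in Prx1_Cre. They were Irf4, described above, Dll3, Nuggc, Muc20, B3galt5, Tbx1, Rtn4rl1, Gprc5c, Chrnd and Wwtr1. Dll3, a Notch ligand of the inhibitory kind, had 24.3, 24.9, 22.6 and 24.8 CPM in Tek_Cre, and was at least 859-fold lower in Prx1_Cre. Nuggc, a nuclear GTPase of germinal centre B cells, had 13.1, 17.9, 14.05 and 13.3 CPM and was at least 518-fold lower in Prx1_Cre. Gprc5c, a retinoic acid-induced receptor reported on quiescent stem cells, had 7.88, 6.36, 6.596 and 6.57 CPM and was at least 244-fold lower. Wwtr1 (TAZ), a Hippo pathway coactivator, had 6.74, 6.14, 7.24 and 6.32 CPM and was at least 235-fold lower. For the other 5 the bound was 236 to 451-fold. The No_Cre libraries had counts of each of these 10 genes, from 0.273 ± 0.0893 CPM of Tbx1 to 9.81 ± 0.673 CPM of Irf4.

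**Figure D5:**
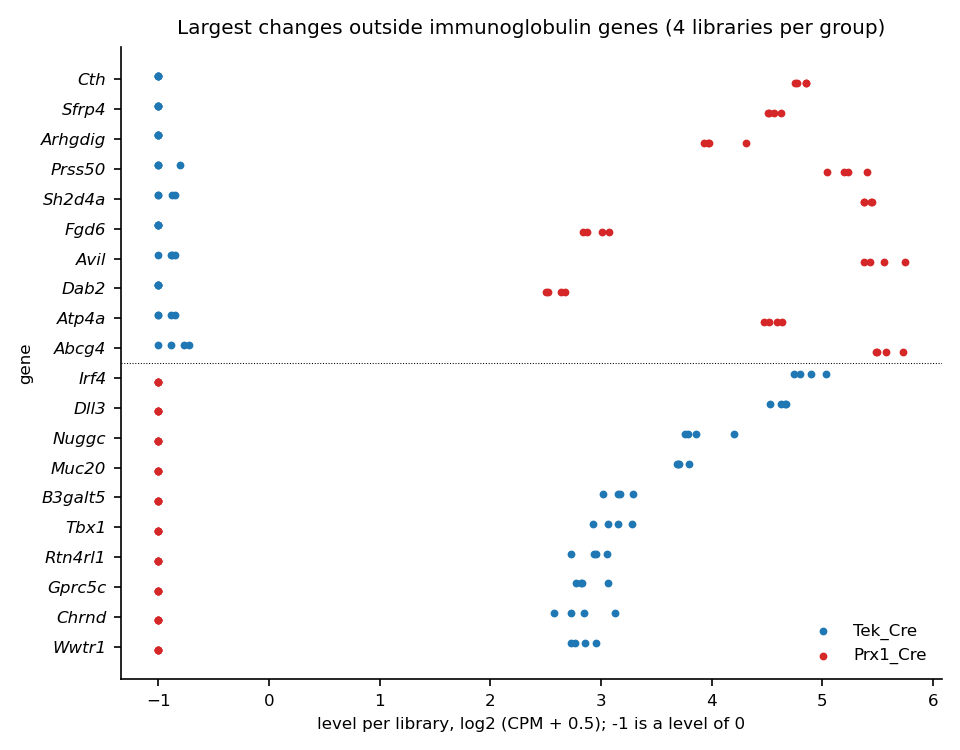
Levels per library, as log2 (CPM + 0.5), of the 10 largest changes in each direction outside immunoglobulin genes, with Tek_Cre in blue and Prx1_Cre in red (4 libraries per group, n = 4). Points at -1 have a level of 0; the groups do not overlap for any of the 20 genes, which the rule for choosing them required.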

How the data were processed

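RNA sequencing was done on 12 libraries, 4 per group, and the gene counts are the authors' own: per the submitters' processing notes, the tools named are HTSeq 0.9.1, STAR 2.5.3a, DESeq2 1.18.1 and Trim Galore 0.4.4, and the build is GRCm38. The deposited table holds raw counts per gene for 12 columns, and every column was matched to a sample by its name. The annotation release and the strand setting of the counting are not given in the sources used here, so reads of antisense or overlapping genes cannot be told apart. Symbols, coordinates and gene types came from the annotation supplied with the reference (GENCODE M21, GRCm38), which gave a symbol for 48349 of 48795 gene IDs.

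Counts were tested with edgeR 4.0.16 in R 4.3.3 (quasi-likelihood, TMM factors) in 1 fit over the 12 libraries and 3 groups, which share 1 estimate of the spread. Genes were kept by filterByExpr with a minimum count of 10, which left 14756, and p-values were Benjamini-Hochberg adjusted over all of them with a threshold of 0.05. Changes past 2-fold were tested with glmTreat. The script was tested on simulated data in which most genes were unchanged. Most genes differed in these libraries, so that test does not check their scaling. Library measures were compared with a two-sided exact permutation test (scipy 1.17.1, Python 3.11.15, figures with matplotlib 3.10.9, pseudocount 0.5). Floors of 3 counts per group cover counting error only, since reads without molecular identifiers are not independent molecules. Promoters were the RefSeq windows of 250 bases before to 50 after the start.

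The 46 lists hold 1380 entries for 1264 distinct genes, with 20 not in the table and 104 in more than 1 list. Lists, genes and the comparison itself were chosen with earlier results of these data known, so no p was adjusted over a list alone. Named genes were key members of each list, the 3 members with the smallest p in each, and the 10 largest changes each way outside immunoglobulin genes whose higher group averaged 5 CPM or more. The 7 stem cell markers came from the label check. Some genes that the rule names are not reported here. Other genes named in the text were chosen after their values were seen. There were 16 alternatives, among them DESeq2 1.42.0, other scalings and filters, and 8 fits that each left out 1 library.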

Additional observations from a re-analysis of the deposited data

Results flagged for a closer look

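In each group of 4 libraries, a value stood out where the gap between the highest or lowest library and its nearest neighbour exceeded Dixon's critical share of the group's whole range. Of 412 groups of named genes and library measures looked at, 37 were of this kind, and chance gives about 1 in 20. Of these, 30 were in Prx1_Cre, with 28 of them in replicate 4, and 7 were in Tek_Cre.

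In Prx1_Cre replicate 4, several red cell and neutrophil genes lay above the other 3 libraries. Klf1 was at 283 CPM, Rhd at 343 CPM, Alas1 at 596 CPM and Alas2 at 37.5 CPM. Sphk1 was at 277 CPM and Mfsd2b at 278 CPM. Mpo was at 12654 CPM, Elane at 3398 CPM and the late granule gene Ltf at 11156 CPM. The platelet integrin gene Itga2b was at 708 CPM.

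Other genes that were highest in the same library were Mcm2 (902 CPM), Ddit3 (48.99 CPM), Mzb1 (5.42 CPM), Fos (3033 CPM), Tgfbr2 (67.6 CPM), Abl1 (86.6 CPM) and Arhgdig (19.4 CPM). The 20 most abundant genes took 8.84% of its counts, against 8.64 to 8.67% in the other 3.

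Single mast cell, antigen presentation and interferon genes were lowest there. Fcer1a was at 59.2 CPM and Cpa3 at 263 CPM, B2m at 959 CPM and Irf7 at 40.3 CPM. Low values were also found for S100a8 (1461 CPM), Abcg2 (59.6 CPM), Asns (489 CPM), Hspa5 (1569 CPM), Ncl (1287 CPM) and the summed Y-linked genes (17.6 CPM).

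Outside that library, Alox15 was high in Prx1_Cre replicate 2 (25.7 CPM) and Lepr in Prx1_Cre replicate 3 (0.611 CPM). In Tek_Cre, Hspa1a (2.01 CPM) and Gprc5c (7.88 CPM) were high in replicate 1 and Ezh1 (113 CPM) in replicate 3. In Tek_Cre replicate 4, Camp (3968 CPM), Irf7 (36.2 CPM) and Aurka (61.7 CPM) were high, and Ccna2 (90.7 CPM) was low.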

How the results depend on the processing

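Of the gene counts, those at an adjusted p under 0.05 stayed within 1.5 times under all 16 alternatives, while those past 2-fold depended on which genes were tested. Without the filter, 29159 genes were tested and 1767 were higher past 2-fold (2624 lower). With a minimum count of 50, 11891 were tested, with 631 higher and 1159 lower. Upper-quartile factors moved the median of all genes to -0.089 and the split to 4954 higher and 6490 lower. The DESeq2 test gave 889 and 1507 past 2-fold. Leaving out 1 library at a time gave 5492 to 5750 higher and 5770 to 6038 lower genes, and 1049 to 1141 and 1801 to 1923 past 2-fold. Among the named genes no call reversed. The reversals concerned genes not called: under upper-quartile factors Myc was at -0.034, Abcg2 at -0.038 and Ctnnb1 at -0.035 (log2), and leaving out 1 library gave -0.18 to 0.036 for Cdkn1b and -0.024 to 0.13 for Abcg2. Of the list counts, 12 of 1472 moved by over 1.5 times, such as niche genes higher (7 under upper-quartile factors). The cause was not tested.

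The correlations of same-numbered deviations were 0.118, 0.0798, -0.0543 and 0.316 for replicates 1 to 4. Those of other-numbered deviations ran from -0.234 to 0.115, so the values of replicates 1 and 4 lay above this range. Whether the replicate numbers mark a pairing was not tested. A fit with the replicate block called 5685 genes higher and 6006 lower, with 1070 and 1830 past 2-fold.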
